A study of Homo sapiens with 6 samples.

Results

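The MYC family loci are the genes MYC, MYCN and MYCL with the chromatin around them, described here by histone marks in 2 cell lines of small cell lung cancer (SCLC), H69M and its parent NCI-H69 (H69). The members were taken by position. A peak of any of the 4 deposited peak lists was included when it overlapped the hg19 span of a gene or the 250 kb on either side of it. This gave 62 of the 148837 peaks on chromosomes 1 to 22 and X, and they comprised 29 H3K27ac peaks and 10 H3K27me3 peaks in H69M, and 20 H3K27ac peaks and 3 H3K27me3 peaks in H69. The next 1 Mb on each side of the 3 windows, called the flanks here, held 160 further peaks.

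Chromatin immunoprecipitation followed by sequencing was done in both lines, with 1 H3K27ac library, 1 H3K27me3 library and 1 input library for each line. The labels describe H69M as derived from H69 by a published procedure and do not say whether it is a single clone. The inputs were not used here. With 1 library per group there is no replicate check and no p-value between the lines, and every interval given below is an exact 95% binomial interval that covers counting error only and treats peaks as independent. The series sets H69M against H69 as isogenic lines in a study of MHC class I, and the question put to the MYC family genes is whether the marks near them differ between the lines and from their surroundings.

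MYC, MYCN and MYCL encode related transcription factors that pair with MAX, bind E-box sequences and drive cell growth and division. In SCLC the amplification or high expression of a single member is common, and MYCL takes its name from lung cancer. H3K27ac, acetylation of lysine 27 of histone H3, marks active promoters and enhancers, whereas H3K27me3, trimethylation of the same residue by Polycomb repressive complex 2, marks silenced genes. NCI-H69 is known as a line with an amplified MYCN gene. Copy number was not measured in these lists, so a stronger mark on each gene copy and more gene copies cannot be told apart.

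The 3 genes lie on hg19 at chromosome 8 from 128748315 to 128753680 on the plus strand (MYC), chromosome 2 from 16080560 to 16087129 on the plus strand (MYCN) and chromosome 1 from 40361096 to 40367687 on the minus strand (MYCL).

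In RefSeq gene order the nearest protein-coding neighbours of MYC are POU5F1B upstream and GSDMC downstream, and the long noncoding RNA genes CASC11 and PVT1 lie directly beside it. MYCN lies between DDX1 upstream and CYRIA downstream, with the noncoding genes MYCNOS and MYCNUT on the upstream side and GACAT3 downstream. MYCL has closer neighbours of the protein-coding kind, MFSD2A, CAP1 and PPT1 upstream and TRIT1 downstream. No peak was assigned to a neighbouring gene, because the gene table used lies on another assembly.

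The promoters of MYCN and MYCL are shown because H3K27ac was listed across the start of MYCN and not at the start of MYCL in both lines. The 250 bases before the RefSeq start of each gene (GRCh38.p14, chr2:15940300-15940549 on the plus strand and chr1:39901918-39902167 on the minus strand) are given 5′ to 3′, with capitals at matches on either strand to the GC box GGGCGG and to the E2F motif TTTGGCGC.
MYCN: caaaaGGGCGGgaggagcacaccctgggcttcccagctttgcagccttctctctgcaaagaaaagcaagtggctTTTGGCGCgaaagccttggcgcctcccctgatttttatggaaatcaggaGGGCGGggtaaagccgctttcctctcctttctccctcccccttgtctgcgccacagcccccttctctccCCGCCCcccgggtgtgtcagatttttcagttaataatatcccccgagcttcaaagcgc
MYCL: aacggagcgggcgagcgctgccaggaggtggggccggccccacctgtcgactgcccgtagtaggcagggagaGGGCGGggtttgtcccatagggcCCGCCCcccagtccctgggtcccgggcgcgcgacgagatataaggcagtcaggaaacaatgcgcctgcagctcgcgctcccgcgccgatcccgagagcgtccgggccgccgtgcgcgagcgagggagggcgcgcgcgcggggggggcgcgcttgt

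The MYCL stretch was rich in CpG, with 35 CpG dinucleotides and 74.4% G and C, against medians of 11 and 58% over 35116 RefSeq promoters of the same length. The MYCN stretch had 11 CpG dinucleotides and 57.2% G and C, close to those medians. MYCN held 3 GC boxes and 1 E2F motif, and MYCL held 2 GC boxes and no E2F motif. The GC box occurred in 42.6% of all these promoters and the E2F motif in 0.550%. The E-box CACGTG, found in 6.34% of them, and the TATA box TATAAA, found in 10.7%, matched neither stretch, and no 2 motif matches overlapped. These matches describe the letters and do not show binding.

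At MYC, H3K27ac was far more extensive in H69M. The window held 18 H3K27ac peaks over 34.5 kb in H69M, against 6 peaks over 6.01 kb in H69. The ratio of covered length was 5.07 (1000 bp added to each length) and the ratio of peak numbers was 3 (1.14 to 9.23). Among 5059 windows of 500 kb across the genome with an H3K27ac peak in either line, 30.3% were covered over at least 2-fold the length in H69M, and the median ratio was 1.55. MYC was the only one of the 3 genes past 2-fold. No gene was past 2-fold in the other direction, where 1.92% of all windows were. Within 100 kb of MYC the peak numbers were 9 in H69M and 6 in H69, a ratio of 1.5 (0.477 to 5.12). Within 500 kb the ratio of peak numbers was 4.29 (1.84 to 11.6). With equal numbers of peaks in the lists it was 2.5 (0.917 to 7.86), and without peaks scoring under 100 it was 2.8 (0.953 to 9.93).

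The promoter itself was acetylated in both lines. In H69M a single peak from 128746970 to 128751521, with a score of 2425, ran from 1.35 kb before the start to 3.21 kb into the gene and covered 59.8% of the gene span by itself. In H69 there were 2 peaks at the start, 1 from 128747087 to 128748745 with a score of 589 and 1 from 128749856 to 128750583 with a score of 121, which together covered 21.6% of the span. The score is that of the authors' caller, whose definition is not given, and it serves here to rank peaks within a list. By that rank 14.7% of the H69M list and 32.3% of the H69 list scored as high as the peak across the start.

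All 6 H69 peaks at MYC were overlapped by an H69M peak, and the H69M list covered every base of them, compared with 80.2% of H69 bases over all chromosomes. In the other direction 4 of the 18 H69M peaks overlapped an H69 peak (22.2%, 6.41 to 47.6), and 17.4% of the bases covered in H69M were also covered in H69, compared with 50.3% over all chromosomes. Acetylation in H69M thus included the H69 sites and extended over a further 28.5 kb.

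The sites common to both lines lay upstream and downstream of the gene. About 97 kb upstream, the H69M peak from 128649097 to 128651283 had a score of 2088 and the H69 peak from 128649837 to 128650830 had a score of 383. About 58 kb downstream, on the side of the noncoding gene PVT1, the H69M peak from 128806133 to 128808611 had a score of 1019 and the H69 peak from 128806190 to 128807412 had a score of 298. Another upstream site was a single peak from 128656654 to 128659070 in H69M (score 1013) and a pair of weak peaks in H69 with scores of 83.5 and 101.

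The sites listed in H69M and not in H69 lay mostly downstream of the MYC start, where H69M had 13 peaks and H69 had 2. The 13 include the shared site 58 kb downstream. They leave out the H69M peak across the start, within which the other of the 2 H69 peaks lies. Among the sites listed in H69M alone, the highest scoring was the peak from 128863264 to 128868172. It began 115 kb downstream of the start, was 4.91 kb wide and had a score of 2272. A 3.59 kb peak from 128820207 to 128823794, beginning 71.9 kb downstream, had a score of 1942. A peak from 128919125 to 128921507, beginning 171 kb downstream, had a score of 607. From 58 kb downstream on, acetylated sites in H69M continued to 235 kb from the start, near the edge of the window, while the H69 list ended at 59.1 kb.

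**Figure D1:**
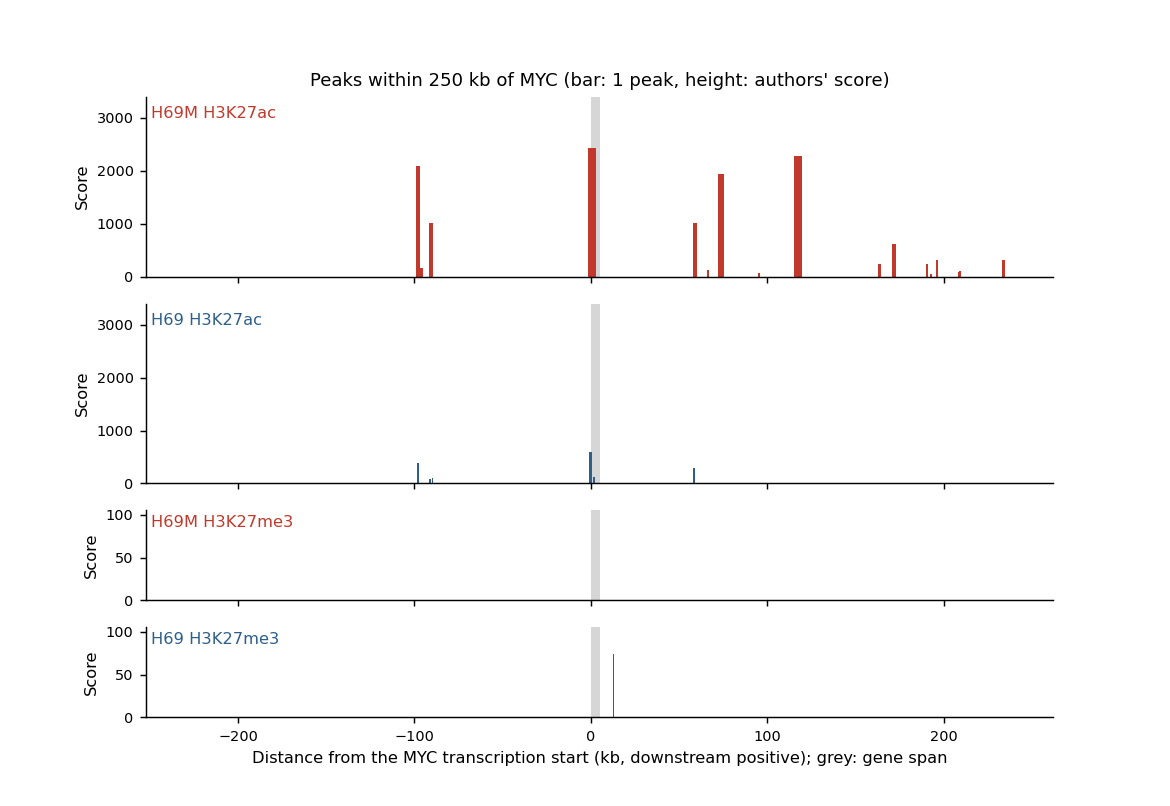
Peaks around MYC by distance from the transcription start in kb (x axis) and authors' score (y axis), for H3K27ac in H69M and H69 and for H3K27me3 in H69M and H69 from top to bottom. Each bar is 1 peak, bars under 0.9 kb are drawn 0.9 kb wide, the grey band is the gene, and the score axes of the 2 marks differ. H69M has 13 H3K27ac peaks downstream of the start, against 2 in H69. The H69M peak across the start is not among the 13, and 1 of the 2 H69 peaks lies within it.

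MYC also was denser in H3K27ac peaks than its own surroundings, in both lines. In H69M the window held 3.56 H3K27ac peaks per 100 kb and the flanks 0.8, a ratio of 4.45 (2.14 to 9.33). In H69 the window held 1.19 peaks per 100 kb and the flanks 0.25, a ratio of 4.75 (1.21 to 19.7). Windows at least 2-fold denser than their flanks made up 16.8% of all windows in H69M and 19.1% in H69, and MYC was the 1 gene of the 3 past this limit in each line. The H69 value rests on 5 flank peaks and 6 near peaks. It was 1.55 (0.490 to 4.67) with a window of 500 kb on each side and 11.9 (1.44 to 546) with flanks of 500 kb, where the flanks held 1 H69 peak. In H69M the ratio was 2.54 (1.20 to 5.53) with flanks of 500 kb.

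The difference between the lines was not confined to the MYC window. The flanks held 16 H3K27ac peaks over 21.5 kb in H69M and 5 peaks over 5.28 kb in H69, a covered length ratio of 3.58, so that the ratio in the window was 1.41 times that in the flanks. By peak numbers the ratio was no larger in the window, at 3, than in the flanks, at 3.2 (1.12 to 11.2). The scores in the window were higher than those in the flanks. The median score of near peaks was 279 in H69M, against 180 in its flanks, and 209 in H69, against 77.9 in its flanks. Each line nevertheless had a peak of score 3100, the value at which the H3K27ac scores pile up, in the upstream flank and none in the window.

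Hardly any H3K27me3 peak was listed at MYC, which means that little passed the authors' caller and not that the mark was absent. The H69M list had no peak in the window and 4 in the flanks, and the H69 list had 1 peak of 134 bp, 12.9 kb downstream of the start, with a score of 73.5, and 2 in the flanks. Of the 6083 windows of 500 kb, 2707 in H69M and 2434 in H69 held any H3K27me3 peak, so a window with none or 1 was usual.

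At MYCN, H3K27ac was long in both lines. The peaks over the gene shared 8.66 kb, and the positions differed mainly downstream of the gene. The window held 3 H3K27ac peaks over 31.0 kb in H69M and 3 over 28.5 kb in H69, a covered length ratio of 1.08, below the median of 1.55 over all windows. The peaks were far wider than most. Their median width was 10495 bp in H69M and 8923 bp in H69, against 1149 and 966 bp over the whole lists. As a result 11.4% of all 500 kb windows in H69M and 6.56% in H69 were covered over as long a stretch, although 65.3% and 53.9% held as many peaks.

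The gene and its promoter lay under a single peak in each line, with a score of 3100 in both. The H69M peak ran from 16076309 to 16086803, starting 4.25 kb upstream of the transcription start and covering 95.04% of the gene span. The H69 peak ran from 16078140 to 16087062, starting 2.42 kb upstream and covering 98.98% of the span. Itself included, 83 peaks were at least as wide in the H69M list of 51091, and 49 in the H69 list of 38255. Scores at or above 3100 were reached by 11.8% of H69M peaks and 8.93% of H69 peaks and do not order the 2 lines. The MYCN promoter stretch printed above is 250 bases before a start on another assembly, and both peaks reached well beyond that length on each side of the hg19 start.

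Downstream of MYCN the lines differed. H69M had 2 abutting peaks, from 16116470 to 16129001 with a score of 1738 and from 16129040 to 16137001 with a score of 3100, which began 35.9 kb from the start and ended 56.4 kb from it. H69 had a 13.6 kb peak from 16129011 to 16142617 with a score of 400 and a separate 5.97 kb peak from 16150315 to 16156283 with a score of 1438, which ended 75.7 kb from the start. The middle of this region, 7.96 kb, was listed in both lines. The 13.6 kb H69 peak began in the narrow gap between the 2 H69M peaks. The 12.5 kb closest to the gene were listed in H69M and not in H69, and the 5.97 kb farthest from it, like the far end of the 13.6 kb peak, were listed in H69 and not in H69M. These are among the widest peaks of either list. Itself included, 37 peaks of the H69M list were as wide as its 12.5 kb peak, and 5 peaks of the H69 list were as wide as its 13.6 kb peak.

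**Figure D2:**
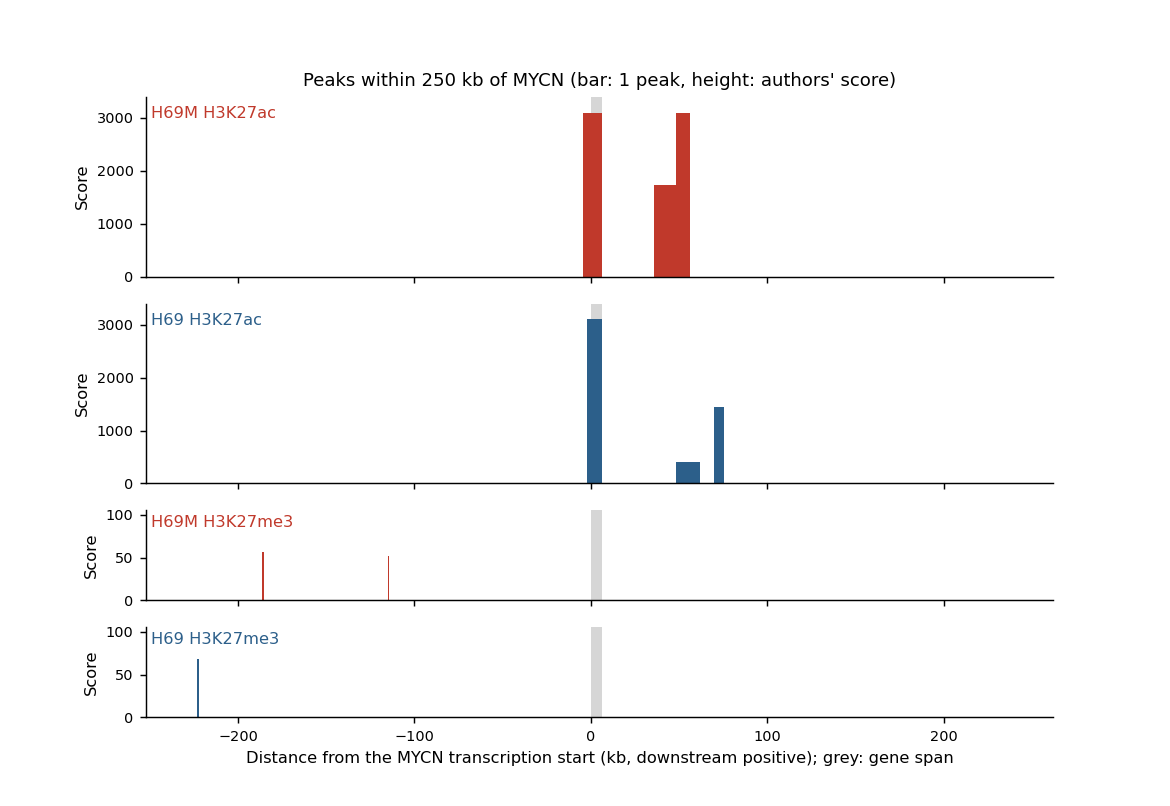
Peaks around MYCN by distance from the transcription start in kb (x axis) and authors' score (y axis), with H3K27ac in H69M and H69 and H3K27me3 in H69M and H69 from top to bottom. Each bar is 1 peak, bars under 0.9 kb are drawn 0.9 kb wide, and the grey band is the gene. The promoter peak is at 3100 in both lines, and the downstream pair lies closer to the gene in H69M, from 35.9 kb, than in H69, from 48.5 kb.

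Of the bases covered by H3K27ac near MYCN, 16.6 kb were covered in both lines, 14.4 kb in H69M alone and 11.9 kb in H69 alone. The bases shared were 53.7% of those in H69M and 58.3% of those in H69, compared with 50.3% and 80.2% over all chromosomes. At MYCN, and likewise at MYCL with 64.8%, the share of H69 acetylated bases also covered in H69M lay below that over all chromosomes. With 1 library of each line this difference has no test.

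Few other sites were acetylated near MYCN. Apart from the gene and the downstream region, no H3K27ac peak was listed within 250 kb in either line, and none lay upstream of the promoter peak. The flanks held 8 peaks over 9.31 kb in H69M and 6 peaks over 5.10 kb in H69. Peak density was 0.592 per 100 kb in the window of each line, against 0.4 in the flanks of H69M and 0.3 in the flanks of H69, which gave ratios of 1.48 (0.253 to 6.17) and 1.97 (0.319 to 9.24). By covered length the contrast was larger, with 6.12% of the window and 0.465% of the flanks covered in H69M, and 5.63% and 0.255% in H69. The median score near MYCN was 3100 in H69M and 1438 in H69, against flank medians of 176 and 195.

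The density ratios at MYCN depend on the count of a few wide peaks. Within 100 kb of the gene they were 4.15 (0.692 to 18.2) in H69M and 7.26 (1.06 to 42.9) in H69, and after peaks less than 1000 bp apart were merged the H69M ratio was 0.987 (0.102 to 4.95). With equal numbers of peaks in the lists it was 2.37 (0.368 to 12.2).

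Few H3K27me3 peaks were listed near MYCN in either line, which again describes the lists and not the absence of the mark. H69M had 2 peaks, 186 kb and 115 kb upstream, with scores of 56.01 and 51.8, and H69 had 1 peak, 223 kb upstream, with a score of 67.8. None of them overlapped a peak of the other line, and none lay within 100 kb of the gene. The share of all H3K27me3 peaks overlapped in the other line was not computed. By bases, 19.2% in H69M and 31.2% in H69 were covered in the other line over all chromosomes. The flanks held 3 peaks in H69M and none in H69.

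At MYCL no H3K27ac peak lay on the gene or at its start in either line. The nearest peak was 17.9 kb downstream of the start in H69M, from 40348671 to 40349761 with a score of 917, and 18.0 kb downstream in H69, from 40348649 to 40349713 with a score of 486. It lies beyond the end of the gene, on the side of the protein-coding neighbour TRIT1. The nearest peaks upstream began 52.9 kb away in H69M and 53.1 kb away in H69, on the side of MFSD2A. The CpG-rich MYCL promoter printed above thus had no listed acetylation, which means that none passed the authors' caller and not that none was present.

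The MYCL window as a whole was acetylated at other sites in both lines. It held 8 H3K27ac peaks over 11.5 kb in H69M and 11 peaks over 11.1 kb in H69. The covered length ratio was 1.04 and the ratio of peak numbers 0.727 (0.254 to 1.99). Shared peaks numbered 7 of 8 in H69M (87.5%, 47.3 to 99.7) and 7 of 11 in H69 (63.6%, 30.8 to 89.1). By length, 62.3% of the H69M bases and 64.8% of the H69 bases were covered in both lines, against 50.3% and 80.2% over all chromosomes.

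The highest scoring site of the MYCL window was the same in both lines. It lay 137 kb upstream of the start in H69M, from 40504576 to 40507366 with a score of 3100, and 138 kb upstream in H69, from 40505230 to 40507026 with a score of 1314. In H69M the peak nearest to MYCL followed with a score of 917, and a site 162 kb downstream had a score of 587. In H69 the next was a site 112 kb downstream with a score of 675, and 30.4% of the H69 list scored as high. In H69M this site had a score of 216, and 52.1% of the H69M list scored as high. Its width was 965 bp in H69M, against 1870 bp in H69. The pair of sites 53 to 59 kb upstream had scores of 302 and 301 in H69M, and 45.2% and 45.3% of that list scored as high. In H69 the pair had scores of 57.02 and 55.03, and 93.5% and 96.6% of that list scored as high. The H69 peaks without a counterpart lay between 102 and 144 kb downstream, with scores between 63.4 and 168, and the single H69M peak without a counterpart lay 168 kb upstream with a score of 110.

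**Figure D3:**
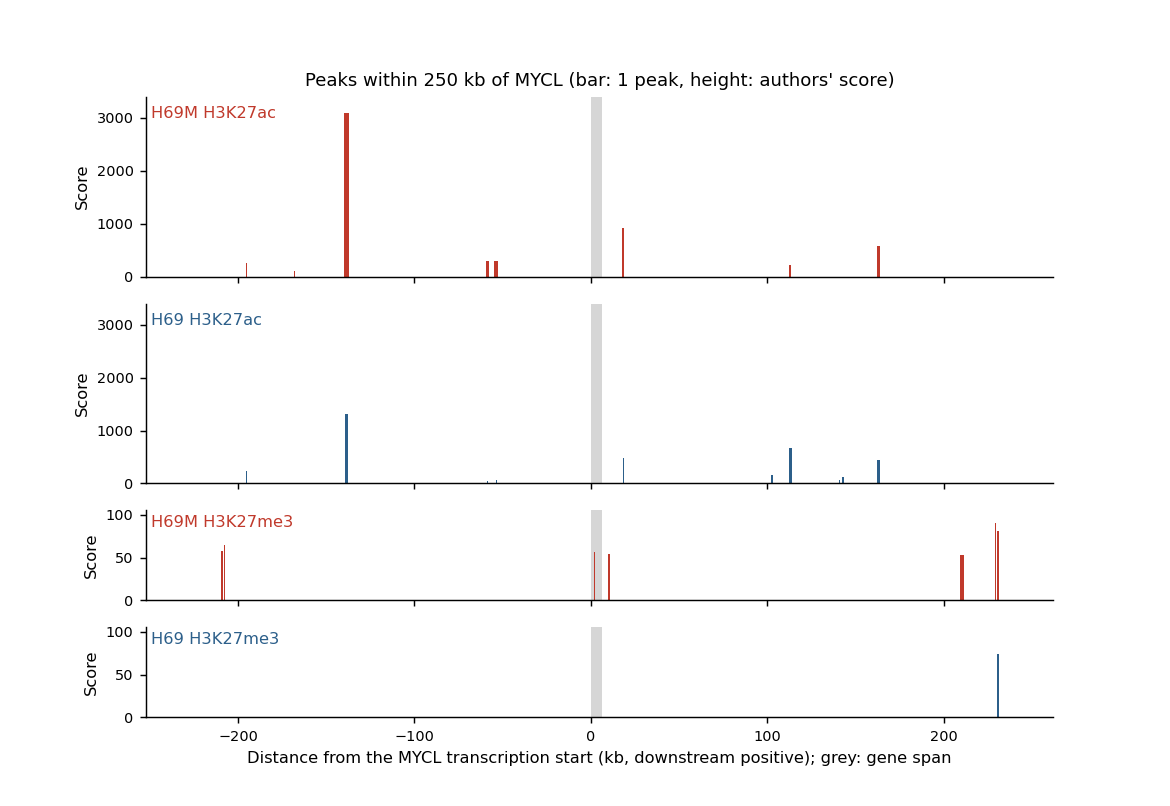
Peaks around MYCL by distance from the transcription start in kb (x axis, downstream positive along the minus strand) and authors' score (y axis), with H3K27ac in H69M and H69 and H3K27me3 in H69M and H69 from top to bottom. Each bar is 1 peak, bars under 0.9 kb are drawn 0.9 kb wide, and the grey band is the gene. No H3K27ac bar touches the gene in either line, and the tallest bar lies 137 kb upstream in H69M and 138 kb upstream in H69.

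MYCL differed from the other 2 genes in its flanks, which held more peaks of both marks than those of MYC or MYCN in each line. In H69M the window held 1.58 H3K27ac peaks per 100 kb and the flanks 3.1, a ratio of 0.509 (0.211 to 1.07). In H69 the window held 2.17 and the flanks 1.8, a ratio of 1.21 (0.554 to 2.42). The lines differed mainly in the flanks, which held 62 peaks over 71.5 kb in H69M and 36 peaks over 41.9 kb in H69, a covered length ratio of 1.69, against 1.04 in the window. Both MYCL density ratios lay between the 2-fold limits. Windows at least 2-fold sparser than their flanks, including windows without a peak, made up 35.5% of all windows in H69M and 38.9% in H69. The H69M ratio passed the lower limit with flanks of 500 kb, at 0.439 (0.176 to 0.960), and with a window of 100 kb on each side, at 0.433 (0.0872 to 1.32), and it was 0.810 (0.327 to 1.76) without peaks scoring under 100. The median score was 301 near MYCL and 130 in the flanks in H69M, and 168 near MYCL and 234 in the flanks in H69.

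H3K27me3 near MYCL was listed more often in H69M, in weak and short peaks. H69M had 8 peaks over 1.07 kb with scores between 52.7 and 90.8, and H69 had 1 peak of 111 bp with a score of 74.0, a covered length ratio of 4.08 (200 bp added to each length) and a ratio of peak numbers of 8 (1.07 to 355). Of 3169 windows with an H3K27me3 peak in either line, 31.1% were at least 2-fold higher in H69M and 14.3% at least 2-fold lower, and MYCL was the 1 gene of the 3 past 2-fold. The median ratio over these windows was 1.46. The whole lists held 37853 H3K27me3 peaks in H69M and 21638 in H69, with median widths of 156 and 185 bp. The flanks had 15 peaks in H69M and 3 in H69. All 9 near peaks scored under 100, as did 81.9% of the H69M list and 86.2% of the H69 list, and with equal numbers of peaks in the lists H69M had 3 peaks and H69 had 1.

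The H69M H3K27me3 peak closest to MYCL, from 40365641 to 40365751, lay inside the gene 1.94 kb downstream of the start, was 111 bp long and had a score of 56.3. A second, from 40357348 to 40357468 with a score of 53.8, lay 10.2 kb downstream of the start, past the end of the gene. Neither had a counterpart in H69. The share of all H69M H3K27me3 peaks with a counterpart was not computed, and by bases 19.2% were covered in H69 over all chromosomes. The highest scoring pair, with scores of 90.8 and 81.05, lay 229 and 231 kb downstream of the start, and the 81.05 peak overlapped the H69 peak by 19 bp. In none of the 3 windows, in either line, did a near H3K27me3 peak overlap an H3K27ac peak of the same line. That covers 10 short H3K27me3 peaks in H69M and 3 in H69. The share of all H3K27me3 peaks that overlap H3K27ac was not computed, so this is not shown to be particular to these loci.

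**Figure D4:**
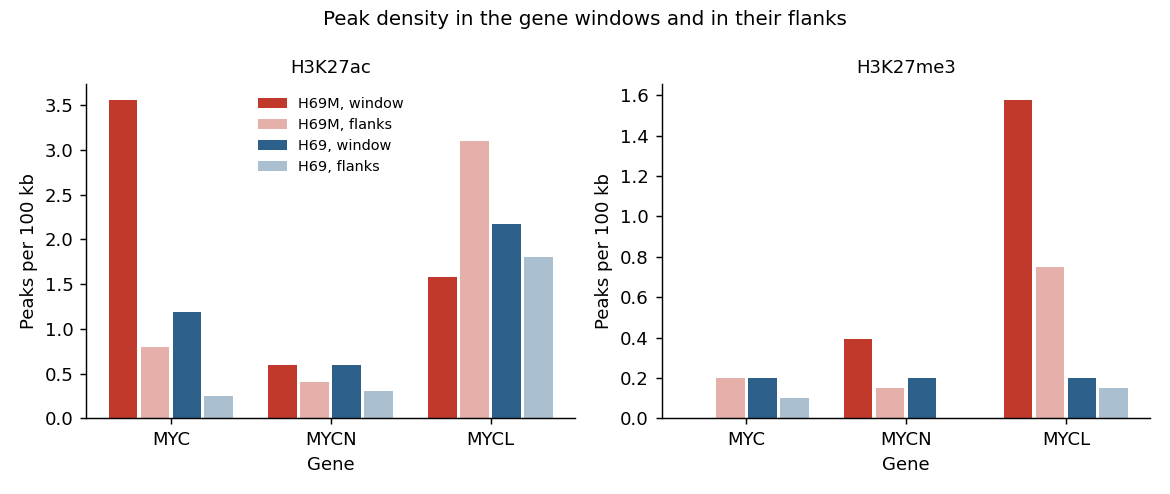
Peaks per 100 kb (y axis) in the windows of MYC, MYCN and MYCL (dark bars) and in their flanks of 1 Mb on each side (light bars), in H69M (red) and H69 (blue), for H3K27ac on the left and H3K27me3 on the right. Each bar is 1 library without an error estimate. At MYC the H3K27ac window bar is the taller of each pair (3.56 against 0.8 in H69M, 1.19 against 0.25 in H69), and at MYCL in H69M the flank bar is taller (1.58 against 3.1).

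For H3K27me3 the window was at least 2-fold denser than the flanks at 2 of the 3 genes in H69M, MYCN (2.63, 0.220 to 23.0) and MYCL (2.11, 0.773 to 5.29), and at 1 gene in H69, MYCN, where the flanks were listed at 0. Over all windows 22.6% in H69M and 23.2% in H69 were as dense. MYC in H69M, with 0 near and 4 flank peaks, was the 1 gene at least 2-fold sparser, as were 54.3% of all windows in H69M and 55.7% in H69. These shares are of windows with a peak in the window or its flanks, 4496 in H69M and 4341 in H69. Of these windows 2707 and 2434 held a peak themselves, and those without a peak counted as sparser. Neither H69M call of a denser window held with equal numbers of peaks in the lists, where the ratio was 0 at MYCN and 1.32 at MYCL. The MYCL ratio was 1.29 with a window of 100 kb on each side and 1.05 with a window of 500 kb. These ratios rest on few peaks, at most 8 in a window and 15 in the flanks.

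Set side by side, the 3 genes had different H3K27ac layouts. By length of acetylated chromatin the order in H69M was MYC (34.5 kb), MYCN (31.0 kb) and MYCL (11.5 kb), and in H69 it was MYCN (28.5 kb), MYCL (11.1 kb) and MYC (6.01 kb). The medians over all 500 kb windows were 6.57 kb in H69M and 3.24 kb in H69. Over the whole lists H69M had 51091 H3K27ac peaks and H69 had 38255, a covered length ratio of 1.59, and their read depths are unknown. MYC lay above that ratio, and MYCN and MYCL lay below it. With equal numbers of H3K27ac peaks in the lists the ratios were 4.79 at MYC, 1.08 at MYCN and 1.04 at MYCL. What part depth, enrichment or copy number has in these ratios was not tested.

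**Figure D5:**
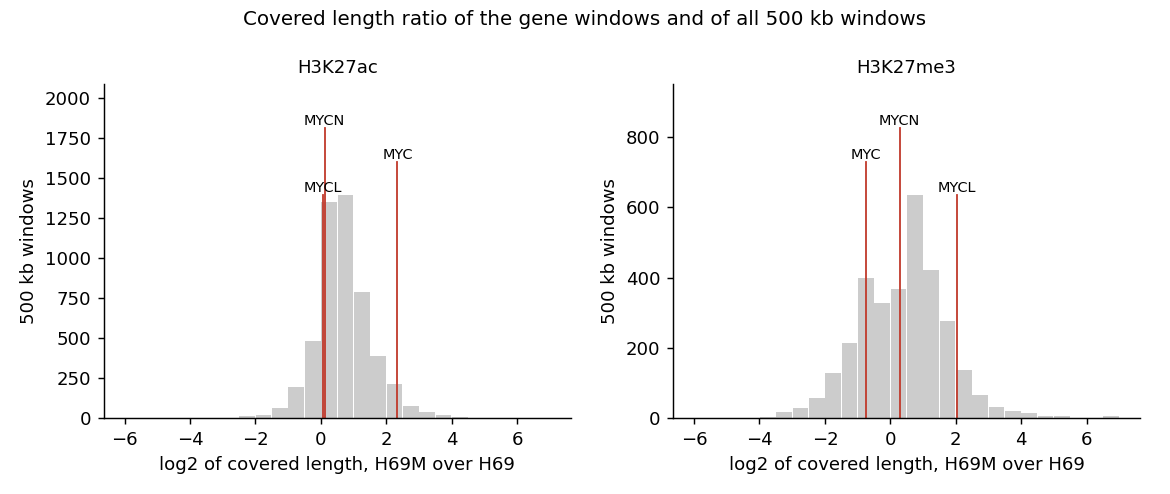
Histogram of the log2 ratio of covered length, H69M over H69, over all 500 kb windows with a peak (grey bars, number of windows on the y axis), with red lines at the ratios of the 3 gene windows, for H3K27ac on the left and H3K27me3 on the right. Ratios beyond the ends of the axis are counted in the last bars, and line heights carry no value. MYC lies to the right of most windows for H3K27ac (ratio 5.07), while MYCN (1.08) and MYCL (1.04) lie below the median of 1.55.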

How the data were processed

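The deposited files give 1 list of peaks for each antibody library, with a position, a score and a peak name that contains MACS. Bowtie2, SAMtools 0.1.19 and the build hg19 are named per the submitters' processing notes. The caller's version and settings, the use of the input and the definition of the score, which the authors deposited and which starts at about 50, are not given in the sources at hand. No read counts are in the lists, so depth is unknown. Scores given side by side for a site in both lines are not shown to lie on the same scale.

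Coordinates are 1-based. A peak counted in a window when it overlapped it by 1 bp or more, and in the flanks when it did not touch the window. Peaks were called shared at an overlap of 1 bp. The share of all peaks overlapped in the other line was not computed, so counts of shared peaks have no background, unlike shares of bases. Covered length ratios had 1000 bp (H3K27ac) or 200 bp (H3K27me3) added to both lengths. The background was taken from the 500 kb windows of chromosomes 1 to 22 and X, and the call was a 2-fold difference. For covered length ratios it was the windows with a peak in either line. For density ratios it was the windows with a peak in the window or in the next 1 Mb on each side, so windows without a peak counted as sparser. Shares of windows covered over as long a stretch, or holding as many peaks, were taken over all 6083 windows. Intervals are exact (Clopper-Pearson). The counting steps were tested on simulated data. Named peaks are those within 2500 bp of a start, or else the nearest, and the 3 with the highest score of each list and window. Other peaks were chosen after their values were seen. The members and lists were chosen with earlier results of these data known. Partner genes of the MYC network such as MAX, MNT and MGA were not used here, since the gene table (GRCh38.p14) is not on the build of the peaks; it served for names and order, and all 3 genes matched. It also gave the promoter sequences, from RefSeq. The labelled cell type was not checked against markers, for the same reason. Python 3.11.15, NumPy 2.4.6, SciPy 1.17.1 and matplotlib 3.10.9 were used. Alternatives were windows of 100 and 500 kb, flanks of 500 kb, a score of 100 or more, equal numbers of peaks (the highest scoring of the longer list), merged peaks, peak midpoints and a stricter overlap.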

Additional observations from a re-analysis of the deposited data

How the results depend on the processing

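Of 127 values recomputed under the alternatives, 114 stayed within the counting interval of the value given (for covered length, within 1.5-fold) and 9 moved beyond it. The remaining 4 were ratios past 2-fold that came out on the other side of 1. These 13 concern H3K27me3, whose peaks near the genes are few and score under 100; the cause was not tested. Counting smaller ratios too, 10 crossed 1, 7 of H3K27me3 and 3 of H3K27ac. The H3K27ac ones were the MYCN density ratio in H69M (0.987, merged peaks), the MYCL density ratio in H69 (0.901, window of 100 kb) and the MYCL ratio of peak numbers, H69M over H69 (1.10, window of 500 kb). Without peaks under a score of 100 no H3K27me3 peak was left near any gene, so covered length ratios, H69M over H69, became 1 at MYC and 1 at MYCL, and the MYCL density ratio in H69M became 0. With equal numbers of peaks the H69M over H69 covered length ratio was 2.12 at MYCL and 0.551 at MYCN, the MYCN ratio of peak numbers was 0, and the MYCN density ratio in H69M was 0. The MYCN density ratio in H69M was 0 with a window of 100 kb and 0.993 with one of 500 kb, and the MYCL density ratio was 15.8 in H69M with flanks of 500 kb and 0 in H69 with a window of 100 kb. When 50% of the shorter peak had to overlap, 0% of the H69M and 0% of the H69 H3K27me3 peaks at MYCL were shared. Some alternatives gave no value where the flanks or the H69 window held no peak. For H3K27ac the recomputed values stayed within their intervals, which are wide. No paired analysis was possible because each group holds 1 library. Depth limits all counts: a site missing from a list may lie below its caller's threshold.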

Other observations

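The flanks of the 3 genes held acetylated sites that both lines shared at high scores. In the flank upstream of MYC a site about 1177 kb from the start had a score of 3100 in H69M and in H69, with peaks of 3154 and 2992 bp. The strongest flank site of MYCN lay 348 kb upstream, with a score of 1564 in H69M and 1273 in H69. Around MYCL a site 789 kb upstream had a score of 3100 in H69M and 3078 in H69, and a site 1077 kb upstream had a score of 3100 in both lines. By contrast the flank sites of MYC that came next by score in H69M, 440 and 372 kb downstream with scores of 1075 and 604, had no overlapping peak in H69.

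Inside that shared site upstream of MYC, the H69M list also held 2 weak H3K27me3 peaks, with scores of 75.3 and 52.7. They lay at 127568782 to 127569022 and at 127569228 to 127569399, within the H69M H3K27ac peak from 127567955 to 127571108. Neither overlapped an H3K27me3 peak of H69. The share of all H3K27me3 peaks that lie in H3K27ac peaks was not computed, so the overlap is not shown to be unusual.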
